A study of Mus musculus with 30 samples.

Results

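The subunits of the transcription factor NF-κB and genes that regulate it were followed in mHypoA-2/12 cells exposed to cannabidiol (CBD). The set held 10 of the 56941 genes in the count tables, taken by symbol. They were the subunits *Rela*, *Relb*, *Nfkb1* and *Nfkb2*, the inhibitor *Nfkbia* and its relative *Nfkbiz*. The others were the deubiquitinases *Tnfaip3* and *Cyld*, and the ubiquitin ligases *Birc2* and *Birc3*. mHypoA-2/12 is an immortalised cell line from the adult mouse hypothalamus, so all libraries come from 1 line. The cells received vehicle (DMSO in culture medium, per the methods of the study) or CBD for 6 h or for 24 h, at doses of 3, 1.5, 0.75 or 0.325 µM. Each of the 10 groups had 3 libraries, sequenced from the 3′ ends of polyadenylated transcripts. Nothing in the labels says whether the 3 libraries of a group came from separate cultures, and p-values therefore measure the spread between these libraries, which may be technical.

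In resting cells, NF-κB dimers are held in the cytoplasm by inhibitory IκB proteins, of which IκBα, the product of *Nfkbia*, is the best known. Cytokine and Toll-like receptors switch on a kinase complex that marks IκBα for destruction, and the freed RelA and p50 dimers enter the nucleus. *Nfkbia* and *Tnfaip3* are themselves among the genes that NF-κB switches on, which closes a negative feedback loop, while RelB and p52 form the slower, alternative arm. In the hypothalamus, this pathway is known for its part in inflammation linked to diet.

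The reads on genes ranged from 1839621 to 4420675 per library. Neuronal markers were sparse in these cells, with summed levels of 94.7 to 128.8 CPM (reads scaled to the size of the library) per library and 6 of 14 markers at a mean of 1 CPM or more, among them *Tubb3*. *Snap25*, *Npy* and *Pomc* had 4, 1 and 3 reads over all 30 libraries. All 10 fibroblast and mesenchymal markers were detected, with sums of 5989 to 8646 CPM. Their sums were 5989 to 7116 CPM in the 6 h vehicle and 7960 to 8497 CPM at 3 µM at 6 h, without overlap. At that dose 12.8% of all genes did not overlap either. The sums at the other 3 doses at 6 h overlapped the vehicle. The macrophage markers *Itgam*, *Tyrobp*, *Adgre1* and *C1qa* had 0 reads, although *Tmem119*, *Cx3cr1* and *Csf1r* were read at means of 242.1, 14.5 and 11.4 CPM. The sums of that list were 154.6 to 264.9 CPM in the 6 h vehicle and 298 to 346.7 CPM in the 24 h vehicle, without overlap. Between these groups 31.8% of all genes did not overlap either. At 3 µM at 24 h the sums were 226 to 296.5 CPM, below all 24 h vehicle libraries (10.6% of all genes did not overlap there). At the other 3 doses at 24 h they overlapped the vehicle. Endothelial markers summed to 3.79 CPM at most, and 4 of 12 astrocyte and oligodendrocyte markers had 0 reads, so their sums of 17.1 to 52.3 CPM came from the others. In RNA taken from whole cultures, fewer cells of a type and less RNA per cell cannot be told apart.

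The promoter sequences are shown for the 3 genes on which the results turn, because *Nfkbia* is a textbook NF-κB target with a κB element near its start, *Cyld* holds one farther upstream, and *Birc2* holds none in this window. Each line gives the 250 bases before the annotated start from RefSeq (build GRCm38.p6), written 5′ to 3′ along the gene, with matches to the κB motif in capitals.
Nfkbia, chr12:55492648-55492897, minus strand: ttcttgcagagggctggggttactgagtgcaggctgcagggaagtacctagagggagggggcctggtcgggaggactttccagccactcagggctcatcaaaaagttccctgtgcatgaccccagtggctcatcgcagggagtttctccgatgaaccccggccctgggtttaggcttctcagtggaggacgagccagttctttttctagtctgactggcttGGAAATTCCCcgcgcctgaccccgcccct
Cyld, chr8:88696778-88697027, plus strand: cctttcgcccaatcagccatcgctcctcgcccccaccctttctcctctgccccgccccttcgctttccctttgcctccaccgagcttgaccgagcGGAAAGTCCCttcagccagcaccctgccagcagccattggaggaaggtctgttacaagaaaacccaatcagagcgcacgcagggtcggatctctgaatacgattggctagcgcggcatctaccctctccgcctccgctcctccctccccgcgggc
Birc2, chr9:7837058-7837307, minus strand: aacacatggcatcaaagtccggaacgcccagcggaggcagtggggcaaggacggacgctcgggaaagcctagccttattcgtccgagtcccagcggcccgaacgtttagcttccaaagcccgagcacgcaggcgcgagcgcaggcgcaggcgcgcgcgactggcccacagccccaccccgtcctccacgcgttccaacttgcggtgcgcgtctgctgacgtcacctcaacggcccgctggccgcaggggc
The κB motif was searched on both strands as GGG, a purine, any base, A or T, 2 pyrimidines and CC, over windows that also held 50 bases after the start. RefSeq held such windows for 7 of the 10 genes, and none was matched for *Nfkbiz*, *Relb* and *Nfkb1*. The motif was present in 4 of these 7 genes, *Nfkbia*, *Tnfaip3*, *Cyld* and *Nfkb2*, and in 5.14% of the 27025 genes in that table (4.51% of 32851 windows). Counted from the start base as 0, the match of *Nfkbia* lay at −29 to −20 and that of *Cyld* at −155 to −146, both on the strand opposite to the gene. *Tnfaip3* had matches beginning at −125 and −12, and some of the matches of *Nfkb2*, the gene with the most, overlapped each other. A match is a description of letters and not evidence of binding.

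**Figure D1:**
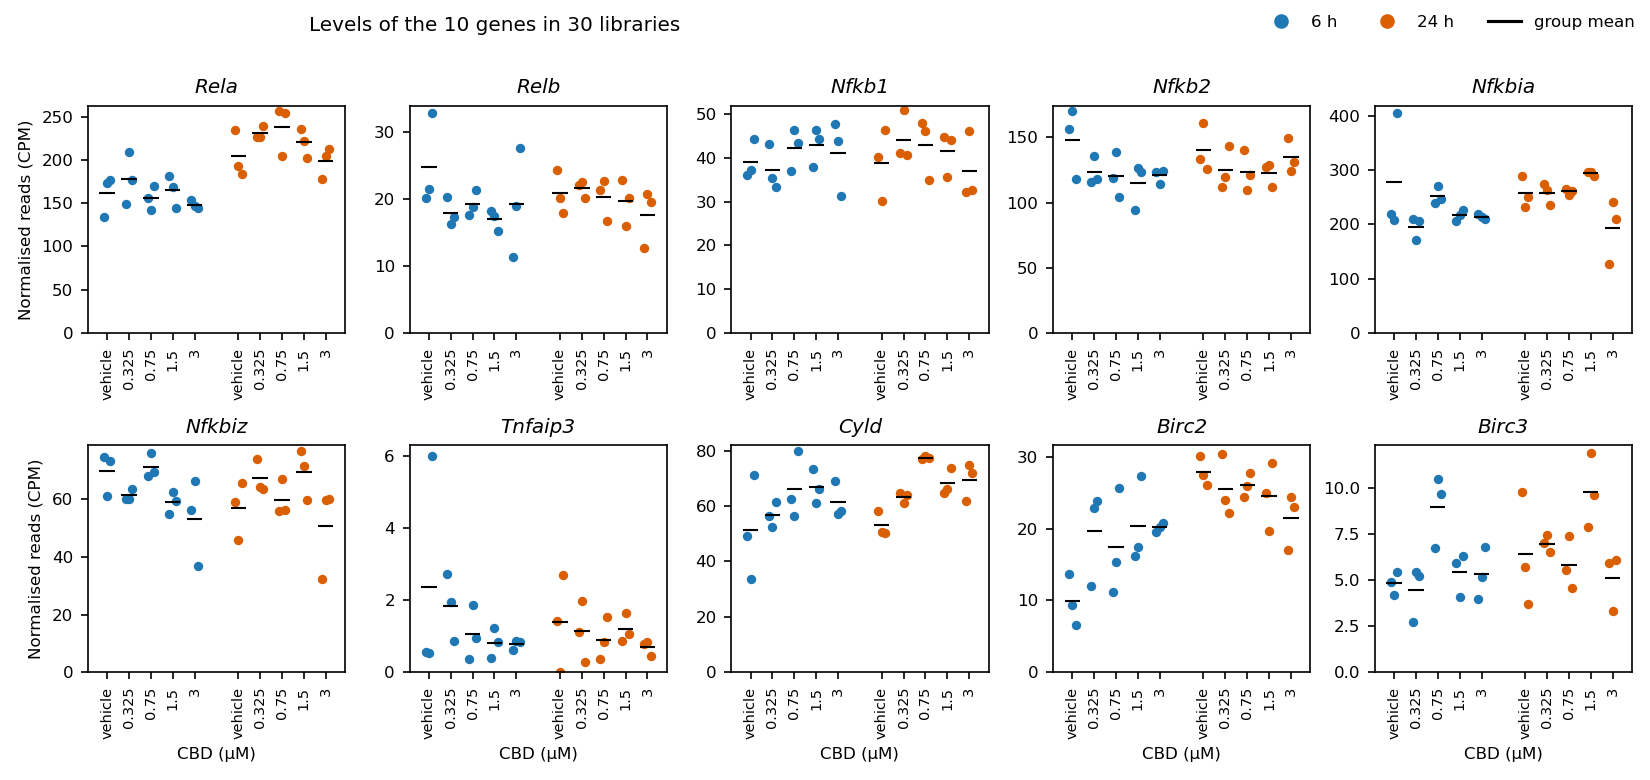
Normalised reads (CPM, y axis from 0) of each gene in every library, by CBD dose (x axis, µM), in blue at 6 h and orange at 24 h, with a black line at the mean of 3 libraries. Birc2 is low in the 6 h vehicle (6.55 to 13.6 CPM), Cyld is higher in all CBD libraries than in the vehicle at 24 h, and 1 vehicle library at 6 h is high in Nfkbia (404.7 CPM) and Tnfaip3 (6.01 CPM).

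The first question was whether CBD changed these genes within 6 h. With the 4 doses pooled against vehicle, no gene of the set passed the threshold, an FDR below 0.1 after Benjamini-Hochberg adjustment of edgeR's quasi-likelihood test over 12012 genes, at which 0.749% of all genes were called. Of the 9 tested genes, 4 had an unadjusted p below 0.05, compared with 10.3% of all genes, and DESeq2 called 1. The median log2 fold change of the 9 genes was −0.02, equal to the median of −0.02 over all genes. *Tnfaip3* did not pass the filter on low counts and was not tested.

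*Birc2* had the largest log2 fold change of the 9 genes at 6 h. It lies at chr9:7818227-7837064 (GRCm38, minus strand) and encodes cIAP1, a ubiquitin ligase that attaches to TRAF proteins at tumour necrosis factor receptors and helps to keep the alternative arm inactive. In the 6 h vehicle, *Birc2* was at 13.6, 9.41 and 6.55 CPM. It was at 12.1, 22.9 and 23.8 CPM at 0.325 µM, and at 11.2, 15.3 and 25.6 CPM at 0.75 µM. The higher doses gave 16.1, 17.5 and 27.4 CPM at 1.5 µM and 19.6, 20.2 and 20.8 CPM at 3 µM. Thus 10 of the 12 CBD libraries lay above the highest vehicle library. How many of all genes reach such a count was not determined, and 1.46% of all genes had no overlap over the 4 doses, which *Birc2* did not reach. At both higher doses the groups of *Birc2* did not overlap (11.7% of all genes at 1.5 µM and 12.8% at 3 µM did not overlap either). The log2 fold change of *Birc2* over the 4 doses was 1.01 (standard error 0.29, edgeR FDR = 0.161), and by dose it was 1.03, 0.86, 1.08 and 1.07 in rising order of dose. No difference in *Birc2* among the doses was detectable (edgeR FDR = 1). The vehicle values rest on 25, 18 and 24 reads. *Birc2* moved with the fibroblast and mesenchymal sums at 3 µM at 6 h. Between the vehicles, and at 3 µM against the vehicle at 24 h, it moved with the sums of the macrophage list, which were mostly *Tmem119*. The part of these sums in the differences of *Birc2* was not tested. DESeq2 gave *Birc2* an adjusted p of 0.0889, edgeR with no filter on low counts an FDR of 0.0265, and edgeR without the third vehicle library 0.73 with an FDR of 0.323. With the share of reads outside genes added to the fit, the change of *Birc2* was 1.07 (edgeR FDR = 0.0322).

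*Birc3*, which lies beside *Birc2* at chr9:7848699-7873186 and encodes the closely related cIAP2, was read at 2.72 to 10.5 CPM at 6 h. It was at 4.91, 4.18 and 5.46 CPM in the vehicle and at 6.72, 10.5 and 9.69 CPM at 0.75 µM, the dose at which *Birc3* was above all vehicle libraries (12.1% of all genes did not overlap at that dose). Its log2 fold change was 0.84 (95% interval −0.01 to 1.69, edgeR FDR = 0.644) at 0.75 µM and 0.22 over the 4 doses (edgeR FDR = 0.887). In the last 1000 bases of its transcripts, 6.93% of the 50-base words of *Birc3* also occur in other genes, *Birc2* among them, so that part of its reads may be uncounted, whereas *Birc2* shared 0% of its words there.

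The difference of *Nfkbia*, the IκBα gene at chr12:55489410-55492647 (GRCm38, minus strand), rested on 1 vehicle library at 6 h. The vehicle libraries were at 220.2, 209 and 404.7 CPM. The 12 CBD libraries lay between 172.1 and 271.8 CPM with a median of 215.8 CPM, on both sides of the first 2 vehicle libraries and all below the third. The log2 fold change of *Nfkbia* over the 4 doses was −0.37 (standard error 0.14, edgeR FDR = 0.294), and without the third vehicle library it was 0.013 (edgeR FDR = 0.981). With the share of reads outside genes in the fit and all libraries kept, it was −0.37 (edgeR FDR = 0.0662). At 0.325 µM, where *Nfkbia* was at 209.3, 172.1 and 205.7 CPM, the change was −0.53 (edgeR FDR = 0.318), which became −0.14 (FDR = 0.797) without that library.

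*Tnfaip3* encodes A20, the ubiquitin-editing enzyme of the feedback loop, and lies at chr10:19000910-19015657. It was near the floor, with 0 to 22 reads per library, and 3 reads, the limit that a count of 0 allows, are worth 0.679 CPM in the deepest and 1.63 CPM in the shallowest library (counting error only). The 3 vehicle libraries at 6 h had 1, 1 and 22 reads, and the CBD libraries at 6 h had 1 to 7. The high value belongs to the vehicle library that was also high in *Nfkbia*. Fitted with no filter on low counts, the log2 fold change of *Tnfaip3* over the 4 doses at 6 h was −1.28 (edgeR FDR = 0.606), with no difference past the threshold.

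None of the 4 subunits had a change past the threshold at 6 h with all libraries kept. *Relb* (chr7:19606217-19629438) had the most negative change of the 9 genes and was at 20.2, 21.4 and 32.8 CPM in the vehicle and at 11.3 to 27.5 CPM (median 17.8 CPM) in the CBD libraries, with a log2 fold change of −0.48 (standard error 0.22, edgeR FDR = 0.429). The highest value was again in the third vehicle library, and without it the change of *Relb* was −0.20. At 1.5 µM all 3 CBD libraries (15.2 to 18.1 CPM) were below all vehicle libraries, with a change of −0.59 (edgeR FDR = 0.626), where 11.7% of all genes did not overlap. *Nfkb2* (chr19:46304320-46312385), the precursor of p52, was at 156.4, 170.3 and 117.7 CPM in the vehicle and at 94.6 to 138.5 CPM with CBD. Here the third vehicle library was the lowest of the 3 and fell among the CBD libraries. The log2 fold change of *Nfkb2* was −0.32 (standard error 0.12, edgeR FDR = 0.339), and without the third vehicle library it was −0.47 with an FDR of 0.0678. *Psd* and a long non-coding RNA gene overlap *Nfkb2* on the opposite strand. The strand setting of the counting was not given in the sources used here. Whether reads in the overlap were counted for *Nfkb2* is therefore not known. *Rela* (chr19:5637483-5648130), the main activating subunit, was at 133.5, 172.9 and 177 CPM in the vehicle and at 142.6 to 209 CPM with CBD, a log2 fold change of −0.02 (95% interval −0.26 to 0.23). *Nfkb1* (chr3:135584655-135691547), the precursor of p50, was at 36.0 to 44.2 CPM in the vehicle and 31.4 to 47.7 CPM with CBD, a log2 fold change of 0.04 (95% interval −0.28 to 0.36), and an unnamed gene model overlaps it.

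*Nfkbiz* and *Cyld* had no change past the threshold at 6 h either. *Nfkbiz* (chr16:55811375-55838899) encodes IκBζ, a nuclear IκB protein that helps NF-κB to switch on secondary target genes, and was at 74.7, 61.1 and 73.5 CPM in the vehicle and at 36.9 to 76.0 CPM with CBD. Its log2 fold change was −0.22 over the 4 doses (edgeR FDR = 0.649) and −0.41 at 3 µM (edgeR FDR = 0.623), where 1 library of 3 held the lowest value. *Cyld* encodes a deubiquitinase that removes the ubiquitin chains on which the pathway signals. It was at 49.1, 33.4 and 71.3 CPM in the vehicle and at 52.4 to 79.7 CPM with CBD, a log2 fold change of 0.25 (edgeR FDR = 0.667), or 0.59 (edgeR FDR = 0.0996) without the third vehicle library.

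At each single dose at 6 h, edgeR called 0 of the 9 genes, with 0.2%, 0.0749%, 0.0999% and 0.05% of all genes called in rising order of dose. An unadjusted p below 0.05 was reached by 2, 1, 4 and 3 genes of the set, beside 8.8%, 7.79%, 7.91% and 7.26% of all genes, and DESeq2 called 0 at each dose among the genes to which it gave an adjusted p. At 0.325 µM all 9 genes overlapped the vehicle, while 10.6% of all genes did not. A test for any difference among the 4 doses at 6 h, which does not test for an order, called 0 of the 9 genes and 0 of all genes. In that test 0 of the 9 had an unadjusted p below 0.05 (3.76% of all genes did). Over the 4 doses together, the libraries of all 9 genes overlapped the vehicle at 6 h, as did those of all but 1.46% of all genes. The plot of changes by dose shows *Birc2* above 0 at all 4 doses at 6 h.

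**Figure D2:**
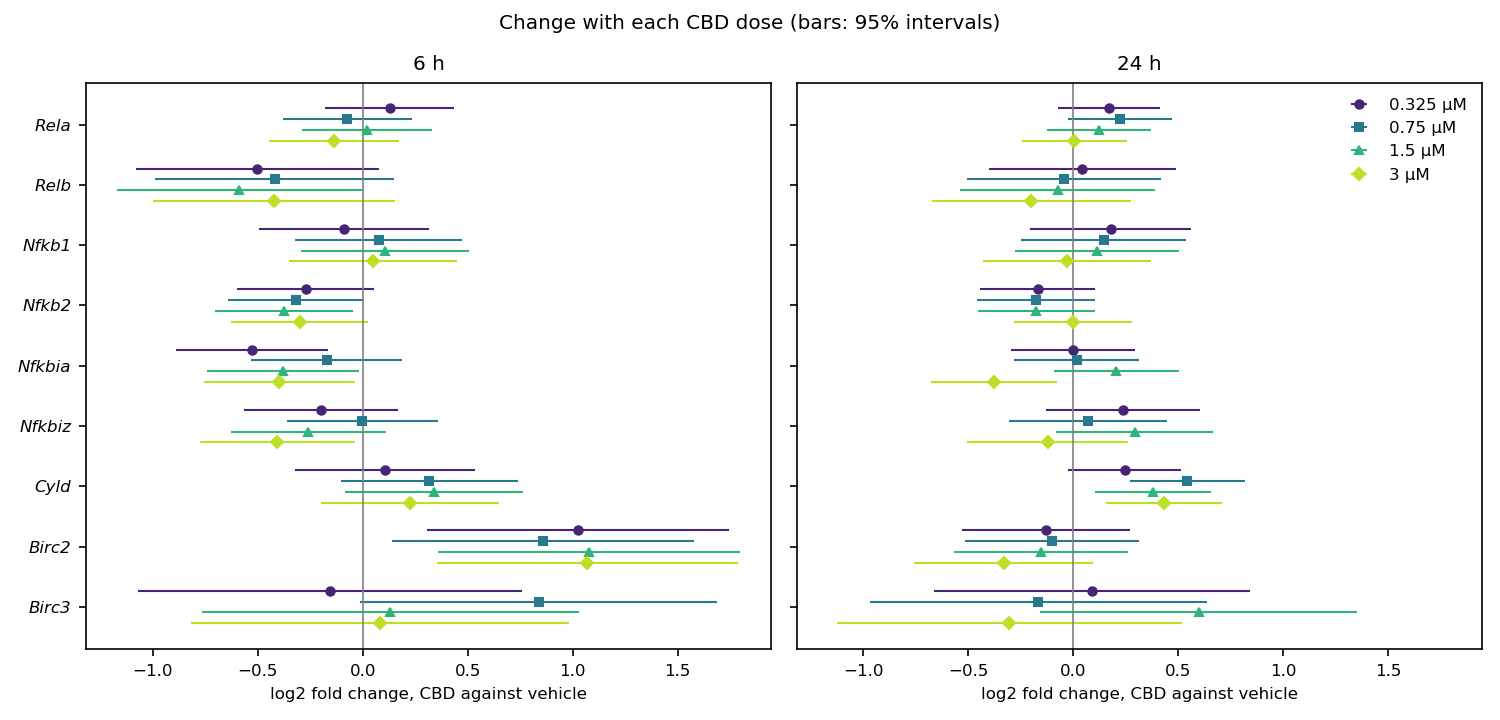
Log2 fold change of each of the 9 tested genes at each CBD dose against the vehicle of the same time (x axis), with 95% intervals from edgeR as bars, at 6 h (left) and 24 h (right). The 4 doses of a time share their 3 vehicle libraries, so the points of a gene move together. Birc2 lies at 0.86 to 1.08 at 6 h and at −0.33 to −0.10 at 24 h.

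The second question was whether the genes differed after 24 h. With the 4 doses pooled, edgeR called 0 of the 9 genes (0.107% of 12118 genes were called), 1 had an unadjusted p below 0.05 (6.73% of all genes did), and DESeq2 called 0. The median log2 fold change of the set was 0.05, beside −0.01 over all genes.

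*Cyld* (chr8:88697028-88751945, plus strand) was the gene with the smallest p at 24 h. The vehicle libraries were at 58.3, 50.6 and 50.3 CPM. *Cyld* was at 64.7, 60.9 and 64.1 CPM at 0.325 µM, at 77.04, 78.2 and 77.1 CPM at 0.75 µM, at 64.8, 65.9 and 73.8 CPM at 1.5 µM, and at 61.7, 74.6 and 72.0 CPM at 3 µM. All 12 CBD libraries were above all 3 vehicle libraries, a pattern shared by 0.223% of all genes in this direction and 0.635% in either. The share of reads on mitochondrial genes split the 24 h libraries the same way, with 8.52, 8.43 and 9.82% in the vehicle and 7.10 to 8.11% in all 12 CBD libraries, and its part in the results at 24 h was not tested. The log2 fold change over the 4 doses was 0.40 (standard error 0.11, edgeR FDR = 0.283), with an adjusted p of 0.12 from DESeq2. By dose it was 0.24, 0.54, 0.38 and 0.43 in rising order, and the largest, 0.54 at 0.75 µM (standard error 0.13), had an FDR of 0.164. At that dose DESeq2 gave an adjusted p of 0.0582, and a fit to only the 2 groups compared gave an FDR of 0.0768. The 24 h vehicle mean of 53.1 ± 4.5 CPM (SD, n = 3) and the 6 h vehicle mean of 51.2 ± 19.01 CPM (SD, n = 3) were the lowest of the 10 group means of *Cyld* and did not differ beyond their spread. 2 processed pseudogenes overlap *Cyld* on the opposite strand.

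At each single dose at 24 h, edgeR called 0 of the 9 genes, while 0.066%, 0.0825%, 0.0413% and 0.00825% of all genes were called in rising order of dose. The genes with an unadjusted p below 0.05 numbered 0, 1, 1 and 2, beside 8.33%, 7.63%, 7.34% and 9.16% of all genes. They were *Cyld* at 0.75 µM, at 1.5 µM and at 3 µM, and *Nfkbia* at 3 µM. DESeq2 called *Cyld* at 0.75 µM and 0 genes of the set at the other doses. *Cyld* did not overlap the vehicle at any dose, beside 13.1%, 15%, 13% and 10.6% of all genes without overlap in either direction.

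*Nfkbia* at 24 h was lower at 3 µM than at the other doses. It was at 126.7, 241.3 and 210.3 CPM at 3 µM, and at 289.6, 232.9 and 251.4 CPM in the vehicle. It was at 275.1, 264.4 and 236.4 CPM at 0.325 µM, at 265.8, 254.8 and 262.2 CPM at 0.75 µM, and at 297.5, 296.2 and 288.7 CPM at 1.5 µM. The first 3 µM library was the lowest of all 30, and the second lay within the range of the 3 lower doses (236.4 to 297.5 CPM). Against the vehicle, the log2 fold change at 3 µM was −0.38 (standard error 0.15, edgeR FDR = 0.511). Against the 3 lower doses together it was −0.45 (standard error 0.12, edgeR FDR = 0.0321), and *Nfkbia* fell by this test. This was 1 of 9 genes, in a comparison that called 10.5% of all genes (4.16% lower), and 2 of the 9 had an unadjusted p below 0.05 (21.6% of all genes did). Without the first 3 µM library the difference was −0.23 (edgeR FDR = 0.367). With the share of reads outside genes added to the fit it was −0.67 (edgeR FDR = 0.271). This share was 21.4 ± 0.487% (SD, n = 3) at 3 µM and 21.4 ± 0.714% in the vehicle at 24 h, against 19.4 to 19.7% at the 3 lower doses, and its part in the result was not tested beyond that fit. Among the 4 doses at 24 h, *Nfkbia* had a p of 0.00518 and an FDR of 0.142 in edgeR, 0 of the 9 genes were called (1.93% of all genes were), 1 had an unadjusted p below 0.05 (14.5% of all genes did) and DESeq2 called 1.

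The second gene with an unadjusted p below 0.05 between 3 µM and the lower doses at 24 h was *Nfkbiz*, at 32.5, 59.7 and 60.3 CPM at 3 µM and 56.0 to 76.7 CPM at the lower doses, a difference of −0.32 (edgeR FDR = 0.228). Its low value was in the same first 3 µM library. Without that library the difference of *Nfkbiz* was −0.09. At 6 h the same comparison called 0 of the 9 genes and 0 of all genes with edgeR, 0 of the 9 had an unadjusted p below 0.05 (5.19% of all genes did), and DESeq2 called 0 of the 9.

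The other genes showed no change past the threshold at 24 h. *Rela* was at 234.7, 193.4 and 184.1 CPM in the vehicle and at 178.1 to 256.2 CPM with CBD, a log2 fold change of 0.13 (95% interval −0.07 to 0.33). *Relb* was at 17.9 to 24.4 CPM in the vehicle and 12.7 to 22.8 CPM with CBD, a log2 fold change of −0.07 (95% interval −0.43 to 0.29). For *Nfkb1* and *Nfkb2* the changes over the 4 doses were 0.10 (95% interval −0.21 to 0.41) and −0.13 (95% interval −0.35 to 0.09). *Birc3* was at 9.79, 5.70 and 3.72 CPM in the vehicle, a spread that covered most of the CBD libraries (3.32 to 11.9 CPM). *Birc2*, at 30.1, 27.5 and 26.01 CPM in the vehicle and at 17.02, 24.5 and 22.98 CPM at 3 µM, did not overlap at that dose (10.6% of all genes did not), but its change of −0.33 had a p of 0.12 and an FDR of 0.644 in edgeR.

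The third question was how the genes differed between the times. In the vehicle alone, *Birc2* rose from 9.86 ± 3.56 CPM (SD, n = 3) at 6 h to 27.9 ± 2.06 CPM (SD, n = 3) at 24 h, a log2 fold change of 1.51 (standard error 0.29, edgeR FDR = 0.000317). The 24 h values of 26.01 to 30.1 CPM were all above the 6 h values, and leaving out any 1 library kept the FDR at 0.0078 or lower. It was 1 of 9 genes called, in a comparison that called 26.7% of 12790 genes, and 2 of the 9, *Birc2* and *Rela*, had groups that did not overlap, beside 31.8% of all genes (an unadjusted p below 0.05 was reached by the same 2 genes and by 33% of all genes). *Rela* was higher by 0.29 at 24 h (edgeR FDR = 0.126). The lowest and the highest group mean of *Birc2* over the 10 groups were thus the 6 h and the 24 h vehicle, 1.49 apart on the log2 scale, with a pooled standard deviation within groups of 0.35. The CBD groups lay between them, at means of 17.4 to 20.3 CPM at 6 h and 21.5 to 26 CPM at 24 h, and no difference of *Birc2* among the doses was detectable at 24 h either (edgeR FDR = 0.884). The other 7 tested genes had differences of −0.34 to 0.36 between the vehicle groups, with FDR values of 0.196 or more in edgeR.

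The change with CBD was then compared between 24 h and 6 h in a single fit to the 30 libraries. *Birc2* had the largest difference of the set, −1.19 (standard error 0.32, edgeR FDR = 0.172), with an adjusted p of 0.0815 from DESeq2. edgeR called 0 of the 9 genes (0.235% of all genes were called), 1 had an unadjusted p below 0.05 (6.52% of all genes did), and DESeq2 called 1. Without the third 6 h vehicle library the difference of *Birc2* was −0.91 (edgeR FDR = 0.545). For *Nfkbia* it was 0.33 (edgeR FDR = 0.808), and −0.05 without that library.

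The third 6 h vehicle library and the first 3 µM library at 24 h were then compared with all libraries of their time, since both touch the *Nfkbia* results. Both were singled out for their extreme *Nfkbia* values, so the place of *Nfkbia* in the counts below was fixed in advance. The counts are therefore no independent test. The third vehicle library was the deepest of its group, with 3574833 reads on genes against 1839621 and 1919498, and had 17.9% of its reads outside genes against 21.4% and 20.8%. It held the highest of 15 values for 2 of the 9 genes, *Nfkbia* and *Relb*, and for 7 of 16 tested NF-κB target genes (43.8%), against 13.9% of all genes. The same library held the lowest of 15 values for 1 of the 9 genes, *Birc2*. It was also the lowest for 2 of the 16 target genes (12.5%), *Il1rn* and *Bcl2l1*, against 12.9% of all genes. *Ccl2*, which encodes a monocyte chemokine, was at 222.3 CPM there and at 32.7 and 26.6 CPM in the other vehicle libraries. *Ccl7* was at 133.5 CPM against 26.2 and 15.7 CPM, and *Cxcl1*, a neutrophil chemokine, at 116.9 CPM against 18.5 and 13.6 CPM. The first 3 µM library at 24 h held the lowest of 15 values for 5 of the 9 genes (55.6%) and for 10 of 17 target genes (58.8%), against 19.8% of all genes. *Ccl2* was at 1.58 CPM there, and at 17.4 and 12.6 CPM in the other 3 µM libraries. It had 20.8% of its reads outside genes, against 21.7% and 21.6%.

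**Figure D3:**
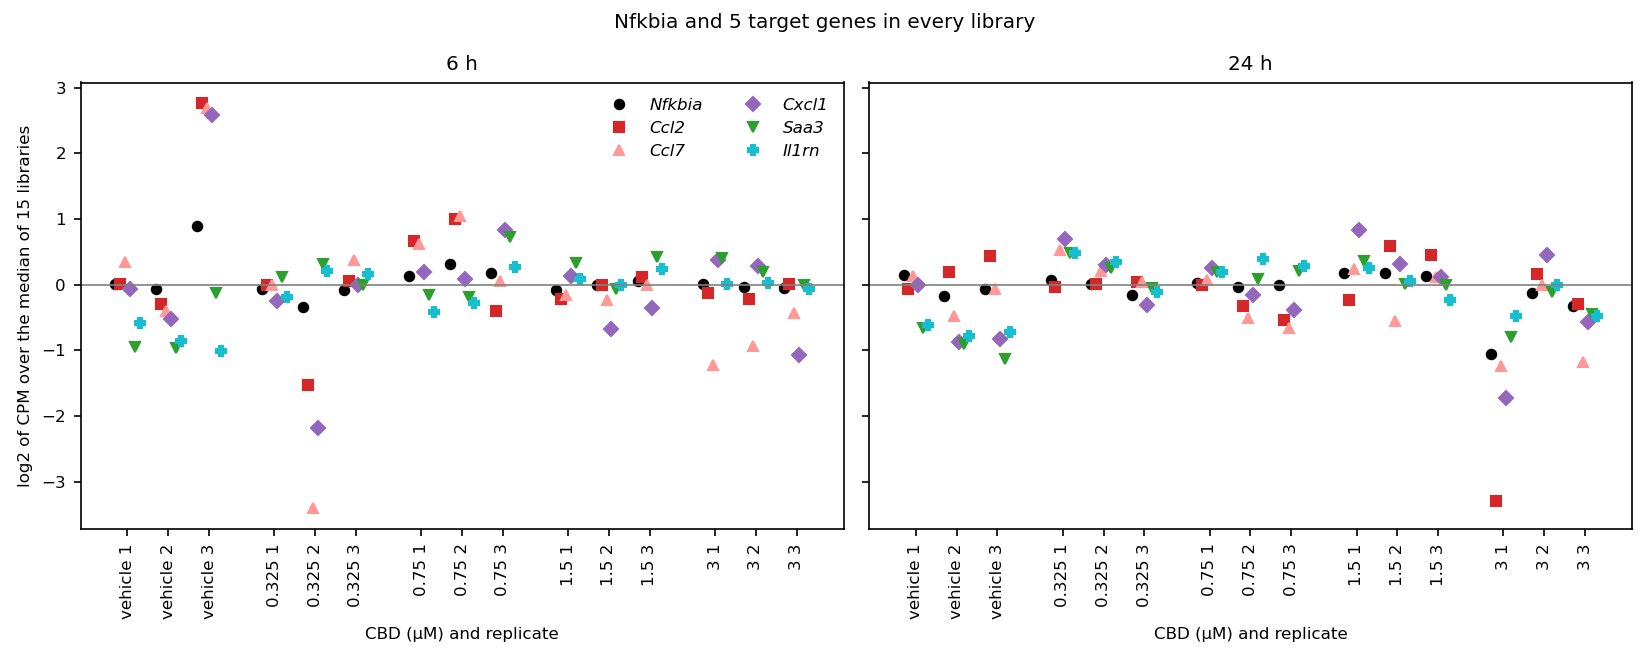
Log2 of the CPM of Nfkbia and 5 target genes in each library over the median of the 15 libraries of that time (y axis), with libraries ordered by CBD dose (µM) and replicate (x axis), at 6 h (left) and 24 h (right). The third vehicle library at 6 h is high in Nfkbia, Ccl2, Ccl7 and Cxcl1, and the first 3 µM library at 24 h is low in the same genes, while Il1rn is low in the vehicle libraries of both times and Saa3 in 5 of these 6.

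The surrounding pathway was read from lists of 88 genes by role. The lists were chosen with earlier results of these data known, so their calls beside those of all genes are no independent test. At 6 h, 70 of them could be tested over the 4 doses together, 2 rose and 6 fell, and all 8 were among the 16 tested target genes, against 0.749% of all genes called. *Il1rn*, which encodes the antagonist of the interleukin-1 receptor, rose by 0.82 (edgeR FDR = 0.0161), from 45.2, 37.6 and 33.6 CPM in the vehicle to 50.8 to 82.2 CPM with CBD, with no overlap. *Saa3*, an acute-phase gene, rose by 0.79 (edgeR FDR = 0.0514) from 161.9, 160.4 and 285.9 CPM in the vehicle. The call of *Saa3* was lost without the first vehicle library (0.66, edgeR FDR = 0.216) and without the second (0.65, edgeR FDR = 0.281), while *Il1rn* was called without any 1 of the 3. Of the genes that fell, *Ccl7* changed by −1.75, *Ccl2* by −1.59 and *Cxcl1* by −1.53 (edgeR FDR = 0.0398, 0.04 and 0.0745), and without the third vehicle library these values were −0.20, 0.13 and 0.17 (edgeR FDR = 0.879, 0.899 and 0.897). *Ier3*, a survival gene, changed by −0.52 (edgeR FDR = 0.0677) and by −0.69 (edgeR FDR = 0.00187) without that library, after which 2 target genes were higher and 1 lower. The other two that fell, *Ptgs2* (−0.97, edgeR FDR = 0.0982) and *Gadd45b* (−0.79, edgeR FDR = 0.0812), also lost the call without it (−0.36 and −0.30). The median over the 16 target genes was −0.43 with that library and 0.07 without it, beside −0.02 over all genes. With the share of reads outside genes in the fit, 2 listed genes rose and 9 fell at 6 h, with 2.74% of all genes called, and 7 of the 9 were target genes.

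Over the 4 doses at 24 h, 2 of 71 listed genes rose and 0 fell, against 0.107% of all genes called. Without the first or without the third 3 µM library, 4 rose and 0 fell, *Cxcl5* and *Lcn2* added, with 0.375% and 0.127% of all genes called. With all libraries, the 2 were *Saa3*, higher by 0.93 (edgeR FDR = 0.000579), and *Il1rn*, higher by 0.79 (edgeR FDR = 0.0101). *Saa3* was at 526, 446 and 381.8 CPM in the 24 h vehicle and at 483 to 1162 CPM with CBD. With the share of reads outside genes in the fit, 0 of the 71 listed genes and 0 of all genes were called at 24 h, although *Saa3* and *Il1rn* were at 0.98 and 0.89 (edgeR FDR = 0.23 and 0.79) and the median of the 17 target genes was 0.28, against 0.10 without it. Between 3 µM and the lower doses at 24 h, 1 listed gene rose and 6 fell (10.5% of all genes were called), 4 of them target genes: *Saa3* (−0.56), *Cxcl5* (−0.72), *Il1rn* (−0.45) and *Sod2* (−0.49), with edgeR FDR values of 0.012, 0.023, 0.0411 and 0.0497. *Tnip1*, a partner of A20, and the receptor gene *Tnfrsf1a* changed by −0.31 and −0.32 (edgeR FDR = 0.0653 and 0.0808), and the adaptor gene *Irak1* rose by 0.34 (edgeR FDR = 0.0964). Without the first 3 µM library, or with that share in the fit, edgeR called 0 of the 71 listed genes in this comparison, beside 0.543% and 0.248% of all genes. The median of the 17 target genes was −0.45 with all libraries, −0.27 without the first 3 µM library and −0.64 with that share in the fit. Without the second 3 µM library 2 listed genes rose and 14 fell, with 18.3% of all genes called, and without the third 0 rose and 1, *Saa3*, fell, with 3.55% called.

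The kinases, receptors, adaptors, ligands, the other subunit and IκB genes and the ubiquitin genes held 0 calls at 6 h and 0 at 24 h over the 4 doses together in edgeR, with 3, 1, 1, 0, 1 and 1 genes at an unadjusted p below 0.05 at 6 h (10.3% of all genes) and 0, 1, 1, 0, 0 and 0 at 24 h (6.73% of all genes). With the share of reads outside genes in the fit, *Ikbkg*, which encodes the regulatory subunit of the kinase complex, and the receptor gene *Tnfrsf12a* were called lower at 6 h (−0.67 and −0.61, edgeR FDR = 0.0622 and 0.053), and *Ikbkg* also without the third vehicle library (−0.77, edgeR FDR = 0.0978; 2.47% of all genes called). The ligand *Tnf* had 0 reads in all 30 libraries, and 3 of 11 ligands could be tested. In the vehicle, 9 listed genes were higher and 13 lower of 71 at 24 h than at 6 h, beside 26.7% of all genes called. No listed gene had a change with CBD that differed between the times in edgeR, with 10 of 71 at an unadjusted p below 0.05 (6.52% of all genes), and 7 of these 10 were target genes.

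**Figure D4:**
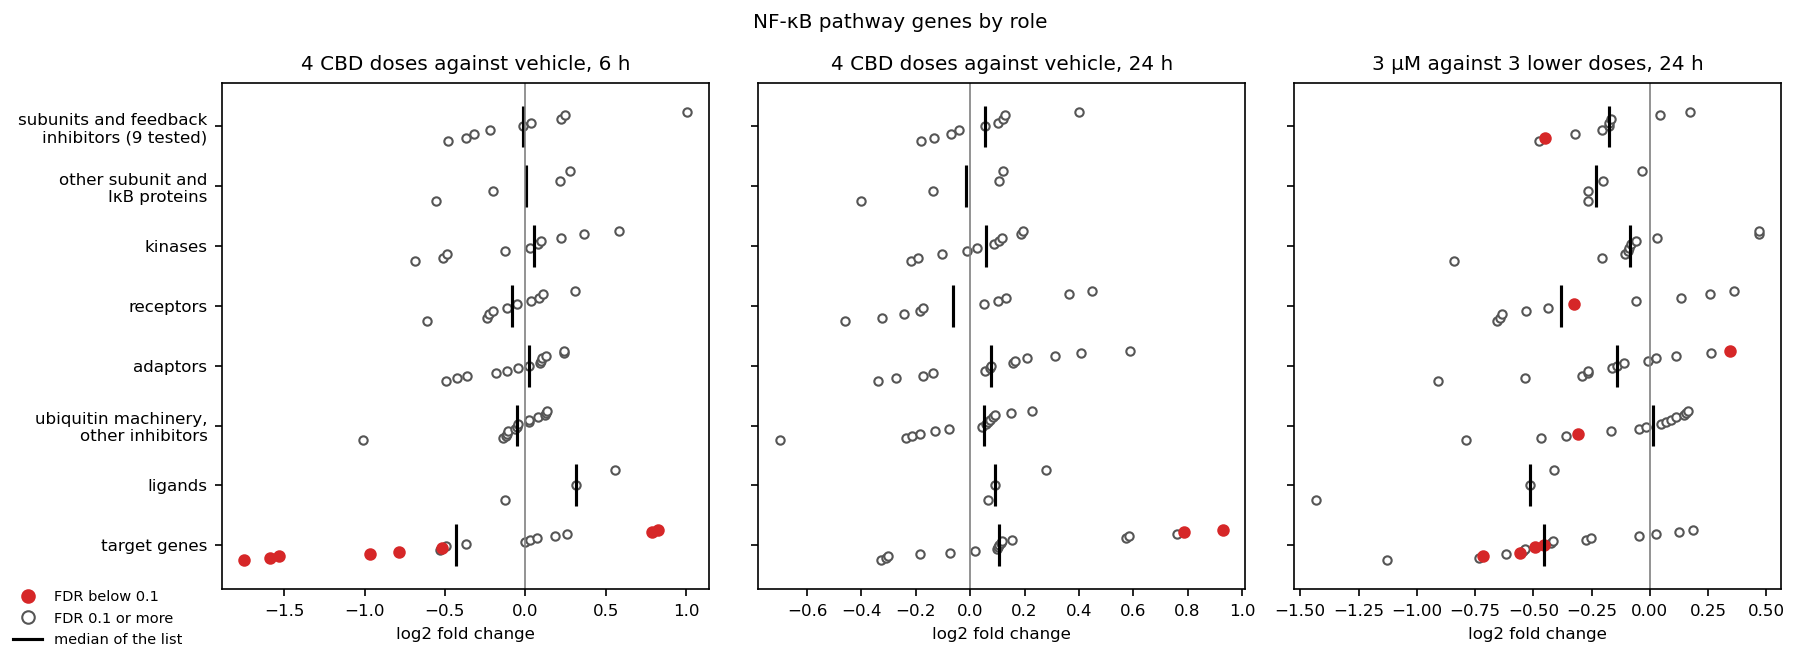
Log2 fold change (x axis) of each tested gene of the pathway, in rows by role, for the 4 doses against vehicle at 6 h (left), at 24 h (centre) and for 3 µM against the 3 lower doses at 24 h (right). Filled red points passed an FDR of 0.1 in edgeR and black lines are list medians. At 6 h and 24 h against vehicle all red points are target genes, a list chosen with earlier results of these data known.

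The genes whose group means over the 10 groups followed *Nfkbia* most closely were *Dlg1*, *Snx1* and *Atp6v1b2*, with root mean square differences of 0.079, 0.080 and 0.093 on the log2 scale, against a median of 0.319 over 12698 genes. For *Birc2* they were *Rftn1*, *Emilin1* and *Gzf1*, at 0.091, 0.106 and 0.117, against a median of 0.462. These genes were taken as those with the smallest differences, so lying below the median was fixed in advance. A gene with no change over the groups would differ by 0.204 from *Nfkbia* and by 0.408 from *Birc2*. These are descriptions over 10 group means.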

How the data were processed

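3′ mRNA-Seq was made by the authors from 30 libraries (QuantSeq FWD kit), with groups taken from the labels. The deposited values are raw read counts per Ensembl gene, 1 table per library, which the authors obtained by trimming with Flexbar, mapping with STAR 2.7.5c to GRCm39 and counting with HTSeq 1.99.2. The strand setting of the counting was not given in the sources used here. Levels are CPM after TMM normalization over the 30 libraries.

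Tests were run in R 4.3.3 with edgeR 4.0.16 (filterByExpr, TMM, quasi-likelihood F-test, a mean per group), on 15 libraries per time or on all 30 between times. Adjustment was by Benjamini-Hochberg across the tested genes of a contrast, and an FDR below 0.1 was called. A group was called not overlapping where all its CPM values lay on the same side of the other group. Alternatives were DESeq2 1.42.0, RLE in place of TMM, only genes with at least 10 reads in every library or every gene with a read, the share of reads outside genes added to the fit, only the groups compared, and each library left out in turn. For the pathway lists, leaving out libraries and that share were added after the values were seen. The steps were tested on simulated counts.

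The 10 genes and the lists were chosen with earlier results of these data known. All 10 are named. Listed genes were named where their FDR was below 0.1 over the 4 doses together or between 3 µM and the lower doses at 24 h, at most 6 per comparison by p. *Ptgs2*, *Gadd45b*, *Irak1*, *Lcn2*, *Ikbkg*, *Tnfrsf12a* and *Bcl2l1*, and the marker genes, *Tnf* and *Psd*, fall outside this rule and were named after their values were seen. Nearest genes were those with the smallest root mean square difference of centred group means of log2 CPM (prior count 2), for the genes of the set with a call. Positions come from GENCODE M21 on GRCm38, an older build than that of the counts.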

Additional observations from a re-analysis of the deposited data

How the results depend on the processing

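The share of reads outside genes, added to the fit, raised the count of called genes of the set from 0 to 2 at 0.325 µM at 6 h and over the 4 doses at 6 h, *Nfkbia* and *Birc2* in both, and lowered it from 1 to 0 between 3 µM and the lower doses at 24 h. DESeq2 and no filter each gave 1 in place of 0 over the 4 doses at 6 h, for any difference among the doses at 24 h, and for the change at 24 h against that at 6 h. At 0.75 µM at 24 h, DESeq2 and only the groups compared gave 1 in place of 0. At least 10 reads in every library gave 2 in place of 1 between the vehicles, with *Rela* added. With each library left out, the count ranged from 0 to 2 over the 4 doses at 6 h and between 3 µM and the lower doses at 24 h, from 0 to 1 at 0.75 and 3 µM at 24 h, for any difference at 24 h and for the change between times, and from 1 to 2 between the vehicles. The libraries behind a count of 2 over the 4 doses at 6 h and 0 between 3 µM and the lower doses were the third vehicle and the first 3 µM library. The calls over all genes shifted too. Over the 4 doses at 6 h they were 0.749% in the main fit, 2.74% with that share and 2.47% without the third vehicle library. Between 3 µM and the lower doses they were 10.5%, 0.248% with that share and 0.543% without the first 3 µM library. For the other settings the share of all genes called is not given here. The cause of these shifts was not tested.

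Of the changes of single genes, 40 refits turned the direction, none of a called value. With no filter, *Rela* over the 4 doses at 6 h was 0.00095 and *Cyld* between the vehicles 0.021. With that share in the fit, *Nfkbia*, *Relb* and *Birc3* over the 4 doses at 24 h were 0.11, 0.18 and −0.45, *Birc3* between 3 µM and the lower doses 0.24, *Nfkbia* and *Cyld* between the vehicles 0.014 and 0.19, and *Cyld* between times −0.016. With each library left out, log2 values over the 4 doses at 6 h ranged from −0.53 to 0.013 for *Nfkbia* (−0.54 to 0.0024 at 1.5 µM), from −0.13 to 0.060 for *Rela* and from −0.018 to 0.14 for *Nfkb1*. At 24 h they ranged from −0.10 to 0.042 for *Nfkbia*, −0.0057 to 0.24 for *Nfkbiz*, −0.15 to 0.056 for *Relb*, −0.043 to 0.25 for *Nfkb1* and −0.20 to 0.51 for *Birc3*. Between 3 µM and the lower doses they ranged from −0.017 to 0.11 for *Cyld* and −0.31 to 0.0051 for *Relb*. Between the vehicles they ranged from −0.32 to 0.23 for *Nfkbia*, −0.24 to 0.34 for *Cyld*, −0.20 to 0.090 for *Nfkb1*, −0.26 to 0.0039 for *Nfkb2* and −0.085 to 0.63 for *Birc3*. For the change between times they ranged from −0.048 to 0.50 for *Nfkbia*, −0.19 to 0.38 for *Cyld*, −0.078 to 0.22 for *Nfkb1* and −0.42 to 0.30 for *Birc3*. No paired analysis was possible because no number in the labels links a library of a group to a library of another.

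Depth limited *Tnfaip3*, at 0 to 22 reads per library, and *Birc3*, at 7 to 41. With 3 libraries a group, single libraries moved the changes of *Nfkbia* past 0 at 6 h.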
